A study of Mus musculus with 12 samples.

Results

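Of the 9 myelin and mature oligodendrocyte genes MBP, MAG, MOG, MOBP, CNP, CLDN11, UGT8A, MYRF and FA2H, 6 had values in the deposited table and were followed here by their gene symbols, among 13647 gene rows for the cord above the lesion and 12338 for the cord below it. All 6 had a value above the lesion, and 5 had one at both sites. UGT8A had a value only above, and MBP, MAG and CNP were not analysed here. The list is a list of names and uses no measured value, but it was chosen with earlier results of these data known. Total RNA was extracted from spinal cord of male mice that carry the human ApoE4 variant of apolipoprotein E, at 4 months of age. Made from it with a standard TruSeq RNA kit, 12 libraries of 4 groups were sequenced. Every group had received a contusion spinal cord injury (SCI) at thoracic level 9 and was studied at 14 days. The groups labelled synj1+/+ have both active alleles of synaptojanin 1, a phosphatase that breaks down the membrane lipid PIP2, and the groups labelled synj1+/- carry 1 inactive allele. Each genotype was sampled in a short segment just above and just below the lesion, with 3 libraries a group, so the comparisons ask how the genotype and the site bear on the injured cord. Uninjured and ApoE3 libraries were not analysed here, so no value says whether a gene moved with the injury itself.

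Myelin is the layered membrane that oligodendrocytes wrap around axons in the central nervous system, where it speeds conduction and helps to keep axons alive. It is rich in galactolipids and in a small number of abundant proteins that hold its layers together, and its genes are switched on together when an oligodendrocyte matures, under transcription factors such as SOX10, OLIG2 and MYRF. After a contusion, oligodendrocytes die near the lesion and surviving precursor cells divide and mature, so myelin mRNA in a piece of injured cord depends on how many such cells it holds as well as on the RNA in each. In these bulk samples, fewer oligodendrocytes and less myelin mRNA per oligodendrocyte cannot be told apart.

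The table gives 1 value for each gene in each group, which combines the 3 libraries, as fragments scaled to transcript length and sequencing depth (FPKM) after upper quartile normalization. The lowest value is exactly 1, so the values were read as FPKM plus 1, on which a log2 ratio slightly understates the change of a low gene. No value of a single library was given, so there is no spread between replicates, no error for any value and no test below. Differences are sizes only, and a gene was counted as called when its log2 ratio was 0.32 or more in either direction, that is 25% higher or 20% lower. The table does not show the depth of a single library, so the precision of each value is unknown. SYNJ1, the targeted gene, went against the labels. Above the lesion its level was 1905 under the synj1+/+ label and 2404 under the synj1+/- label, a log2 ratio of 0.34. Below the lesion it was 1847 and 2593, a log2 ratio of 0.49. All directions are therefore those of the labels.

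MOBP (myelin-associated oligodendrocyte basic protein, chr9:120149742-120181488 in GRCm38), a small positively charged protein of compact central myelin, had the highest value of the members in each group. The protein coding genes of the other members lie on chromosome 3 (CLDN11 at chr3:31149920-31164326 and UGT8A at chr3:125865272-125938682), chromosome 17 (MOG at chr17:37010740-37023398), chromosome 19 (MYRF at chr19:10208271-10240777) and chromosome 8 (FA2H at chr8:111345138-111393821). Sequences upstream of the start were at hand for 4 of the 6 members, in the RefSeq promoter set on GRCm38.p6. The 250 bases before each start were searched on both strands for ACAAAG and ACAATG, letters that SOX factors often bind, and for CTGGCAC and CTGGTAC, letters of the kind bound by MYRF. None of these 4 motifs overlaps another in the matches found. MOBP, the member of highest level, and MOG, the member whose genotype ratio differed most between the sites, are shown from base 250 to base 61 before the start, 190 bases each, 5′ to 3′ on the strand of the gene, with the matches in capitals. MOBP is at chr9:120149492-120149681 on the plus strand and MOG at chr17:37023459-37023648 on the minus strand.
MOBP: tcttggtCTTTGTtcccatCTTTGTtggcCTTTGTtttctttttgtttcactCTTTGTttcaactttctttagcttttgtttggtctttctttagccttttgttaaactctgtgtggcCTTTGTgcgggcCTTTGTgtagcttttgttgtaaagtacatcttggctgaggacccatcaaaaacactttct
MOG: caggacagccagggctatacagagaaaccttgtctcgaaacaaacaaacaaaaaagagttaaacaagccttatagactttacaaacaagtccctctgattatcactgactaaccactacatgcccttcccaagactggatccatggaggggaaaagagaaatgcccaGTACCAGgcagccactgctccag

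The MOBP window holds ACAAAG 6 times, always on the opposite strand, where it reads CTTTGT, and the matches lie between 243 and 115 bases before the start. ACAAAG occurs in 16.5% of all 32851 promoters of that length, and 1 promoter of them, that of MOBP, holds it 6 times or more. Such a repeat count was made for MOBP and ACAAAG only, after the matches were seen. The MOBP bases shown are 38.4% G or C, against a median of 52.4% over the 250 bases of all promoters. MOG has CTGGTAC on the opposite strand, where it reads GTACCAG, 83 to 77 bases before its start, and 1.83% of all promoters have that motif. ACAATG and CTGGCAC, which 10.7% and 4.19% of all promoters hold, have no match in either window. The windows of CLDN11 and UGT8A hold none of the 4 motifs. The matches are a description of the letters and say nothing of which factor was bound in these cords.

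The members spanned a wide range of levels, and their order was the same in every group. MOBP stood at 10916 and 10552 above the lesion and at 10366 and 9724 below it, in the groups labelled synj1+/+ and synj1+/- respectively. It was the gene of rank 3 or 4 among all genes listed above and of rank 3 in both groups below. The gene next in order, CLDN11, is the claudin that seals the layers of central myelin with tight junctions. Its level was 499 and 423 above and 401 and 366 below, so MOBP exceeded it 21.9-fold to 26.6-fold. MYRF, the membrane-bound transcription factor that starts and keeps up myelin gene expression in mature oligodendrocytes, followed with 346 and 349 above and 292 and 305 below. UGT8A, the enzyme that adds galactose to ceramide to make the main myelin galactolipid, had 297 and 280 above. MOG, an immunoglobulin-like glycoprotein on the outer face of the myelin sheath and a known target of autoimmunity, had 283 and 249 above and 206 and 231 below. FA2H, which puts the 2-hydroxyl group on the fatty acids of those galactolipids, was lowest with 95.1 and 90.6 above and 65.4 and 73.7 below. The values are per length, but how far that makes the levels of different genes comparable was not tested. In the values as deposited, MOBP exceeded FA2H 115-fold and 116-fold above and 159-fold and 132-fold below. FA2H was still above the median of all genes, which lay between 32.0 and 36.5 in the 4 groups. Neighbours in the order such as UGT8A and MOG, at 297 and 283 in the group labelled synj1+/+, cannot be ranked beyond a replicate error that is not known. In all, the members made up 0.731% and 0.707% of the summed values above and 0.851% and 0.787% below, where fewer genes are listed.

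**Figure D1:**
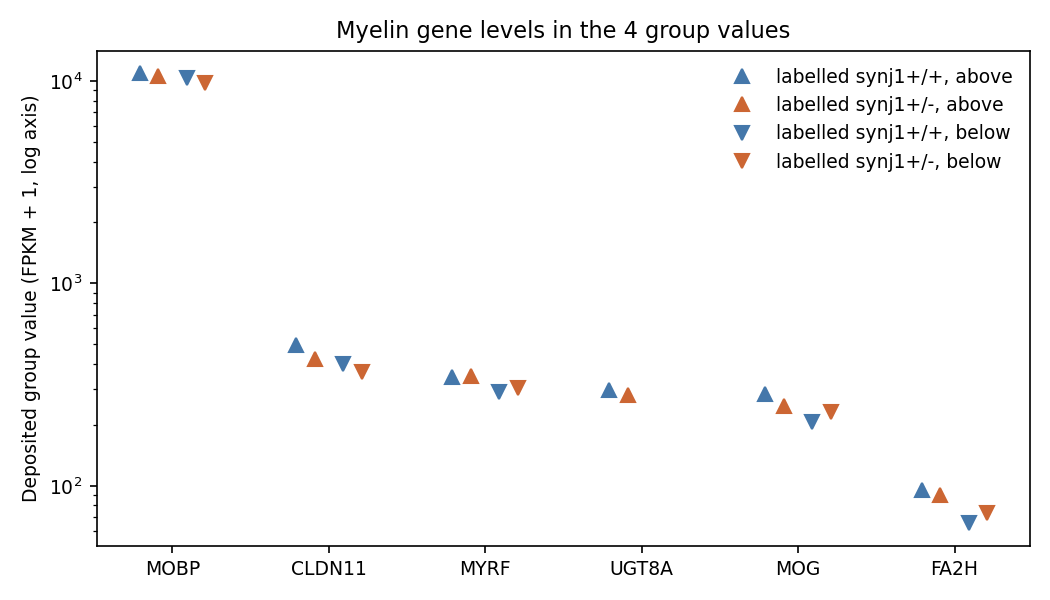
Level of each member in the 4 group values, in FPKM plus 1 on a log axis, with upward triangles for the cord above and downward triangles for the cord below the lesion, blue for the group labelled synj1+/+ and orange for the group labelled synj1+/-. Each point combines 3 libraries and has no error bar, and MOBP lies between 9724 and 10916 while FA2H lies between 65.4 and 95.1.

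Above the lesion the myelin genes differed little between the genotypes, and no member reached the limit of a call. CLDN11 and MOG differed most. CLDN11 was 15.4% lower in the group labelled synj1+/- (499 to 423, log2 ratio -0.24), and 12.3% of all genes had a lower ratio. MOG was 12.0% lower (283 to 249, log2 ratio -0.18), and 17.3% of all genes had a lower ratio. UGT8A and FA2H, both of the galactolipid route, had log2 ratios of -0.08 and -0.07, MOBP one of -0.05, and MYRF one of 0.01. UGT8A, FA2H, MOBP and MYRF lay inside the range that holds the middle of all genes, from a lower quartile of -0.12 to an upper quartile of 0.10. The count of members called was 0 of 6, where 11.6% of all genes were called. At any size 5 of 6 members were lower, against 51.0% of all genes, and their median log2 ratio was -0.08 against -0.00 over all genes. Without replicate values it cannot be said whether any of these differences exceeds the spread between cords.

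Below the lesion the members split. MOG and FA2H had higher values in the group labelled synj1+/-, at 206 to 231 (12.3% higher, log2 ratio 0.17) and 65.4 to 73.7 (12.7% higher, log2 ratio 0.17). CLDN11 and MOBP had lower values, by a log2 ratio of -0.13 (401 to 366) and of -0.09 (10366 to 9724), while MYRF had 0.06. MOG and FA2H lay just past the upper quartile of all genes, 0.16, and CLDN11 lay inside the lower quartile, -0.15. Again 0 members, here of 5, were called, where 19.6% of all genes were called. Lower values were seen in 2 of 5 members against 47.2% of all genes, and the members' median was 0.06 against 0.01 over all genes.

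**Figure D2:**
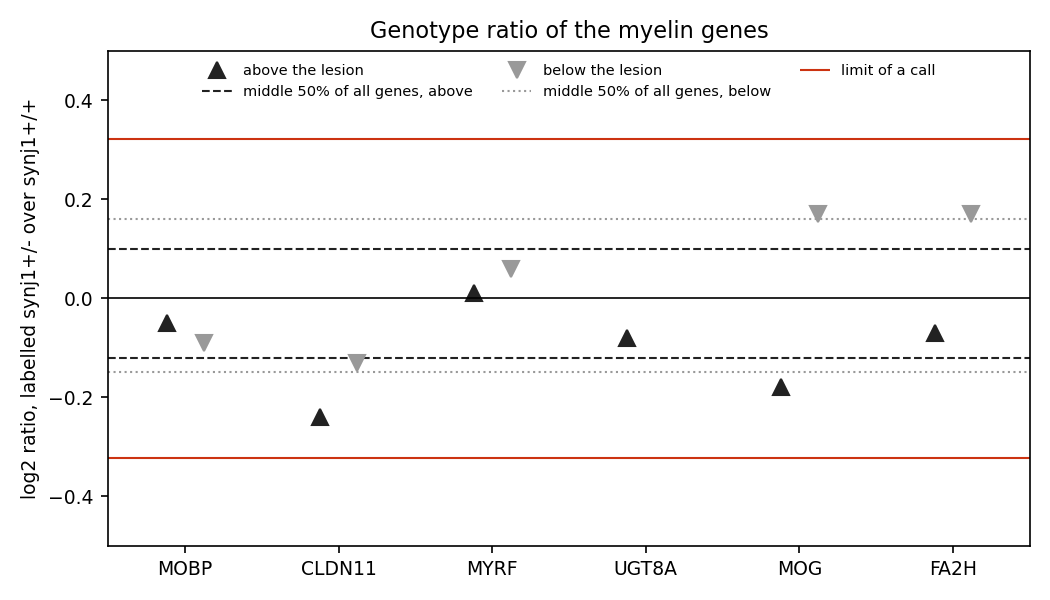
Log2 ratio of the synj1+/- labelled value over the synj1+/+ labelled value for each member, with black upward triangles for the cord above the lesion and grey downward triangles for the cord below, the middle 50% of all genes at each site between the dashed or dotted lines, and the limit of a call (0.32) in red. Every point lies inside it, and MOG and FA2H lie below 0 above the lesion and above 0 below it.

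The sign of the genotype ratio changed between the sites for MOG and FA2H, which is 2 of 5 members, against 39.6% of all genes listed at both sites. For MOG the log2 ratio was -0.18 above and 0.17 below, a difference of 0.35, and 91.7% of the 12023 genes at both sites had a lower difference. For FA2H the ratios of -0.07 and 0.17 differed by 0.24, with 83.5% of genes lower. CLDN11, MYRF and MOBP differed by 0.11, 0.05 and -0.04. The median difference was 0.11 over the members and 0.02 over all genes.

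Seen along the cord, the myelin genes were lower below the lesion than above it in both genotype groups, as the values were deposited, in all 5 members with values at both sites, but dividing each value by the sum over all genes listed at its site, where fewer are listed below, turned the members' medians from -0.32 and -0.19 to 0.03 and 0.12. Dividing by the sum over the genes listed at both sites left them at -0.31 and -0.22. The sites were processed separately, so each ratio across them is a description and is read beside that of all genes, whose median was -0.00 in the groups labelled synj1+/+ and 0.02 in those labelled synj1+/-. In the groups labelled synj1+/+, FA2H was 31.3% lower below (95.1 to 65.4, log2 ratio -0.54) and MOG was 27.2% lower (283 to 206, log2 ratio -0.46), and only 1.82% and 3.15% of genes had lower ratios. CLDN11 had a log2 ratio of -0.32 (499 to 401), MYRF one of -0.24 (346 to 292) and MOBP one of -0.07 (10916 to 10366). MOBP, the member with the highest values, thus had the smallest difference of the 5. FA2H and MOG were past the limit of a call, which makes 2 of 5 members against 7.79% of all genes, and all 5 were lower at any size against 50.2% of all genes. CLDN11, 19.7% lower, missed the limit of 20% narrowly.

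In the groups labelled synj1+/- the same members were lower below the lesion, mostly by less. FA2H went from 90.6 to 73.7 (18.7% lower, log2 ratio -0.30) and CLDN11 from 423 to 366 (13.4% lower, log2 ratio -0.21). MYRF went from 349 to 305, a log2 ratio of -0.19, MOBP from 10552 to 9724, a log2 ratio of -0.12, and MOG from 249 to 231, a log2 ratio of -0.11. No member was past the limit, 0 of 5 against 4.53% of all genes, and 5 of 5 were lower at any size against 44.5%. The members' median was -0.19, where it was -0.32 in the groups labelled synj1+/+. Lower values in both genotype groups were found for 5 of 5 members and for 26.7% of all genes. The ratio was closer to even in the groups labelled synj1+/- for 4 of 5 members, all but MOBP, and for 58.3% of all genes, whose ratios also spread less there, with quartiles of -0.09 and 0.13 against -0.14 and 0.15. The 5 members come from the same libraries and are no replicates of each other.

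**Figure D3:**
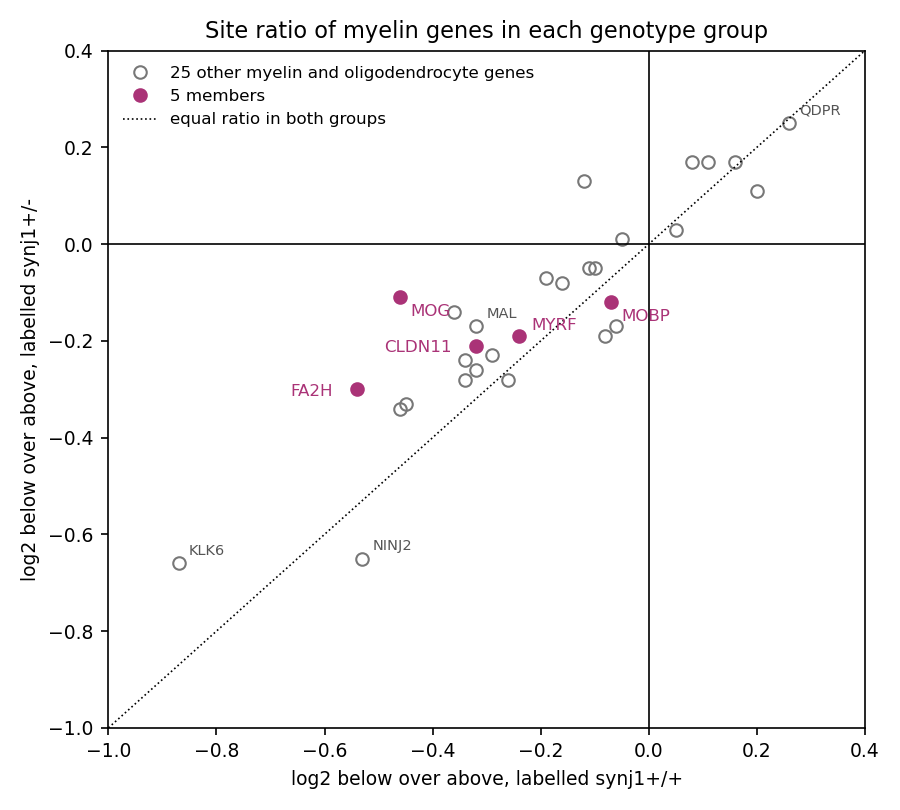
Log2 ratio of the value below over the value above the lesion in the groups labelled synj1+/+ (horizontal axis) and synj1+/- (vertical axis), for the 5 members with values at both sites (filled) and 25 other myelin and oligodendrocyte genes (open), with the dotted line where both ratios are equal. In the deposited values, without the scaling to the sum of all listed genes that turns their medians above 0, all 5 members lie below and left of 0, with 4 above the dotted line, and KLK6 has the lowest ratio of the plotted genes on the horizontal axis, at -0.87, while on the vertical axis its -0.66 lies beside the -0.65 of NINJ2.

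A list of 30 other genes of myelin and mature oligodendrocytes, such as MAL, ERMN and OPALIN, gave 29 values above and 25 below. Its genotype medians were 0.01 above, where 13 genes were lower and 16 higher, and 0.07 below, where 6 were lower and 19 higher, with medians of -0.00 and 0.01 over all genes. Past the limit there were 1 higher and 2 lower genes above, and 0 higher and 1 lower below, which is no more than the 11.6% and 19.6% of all genes called at the sites. The genes with the largest ratios are therefore given as values only. PDLIM2, a PDZ and LIM domain protein, had a lower value in the group labelled synj1+/- at both sites, with 340 and 227 above (log2 ratio -0.58) and 314 and 248 below (log2 ratio -0.34). KLK6, a secreted protease of oligodendrocytes, had 1176 and 907 above (log2 ratio -0.37). ADAMTS4, a metalloprotease that marks oligodendrocytes, was the gene past the limit in the other direction, with 14.0 and 19.5 above (log2 ratio 0.48). The other large ratios above were those of NINJ2 (0.29) and OPALIN (0.23), and below those of HAPLN2, a link protein of nodes of Ranvier (-0.21), GPR37 (0.20) and TMEM125 (0.19), all within the limit.

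Along the cord, and again without that scaling, the wider myelin list had a lower value below the lesion for 19 of 25 genes in the groups labelled synj1+/+ (median -0.16, 7 past the limit) and 17 of 25 in those labelled synj1+/- (median -0.14, 4 past the limit). In both groups together 17 of 25 were lower, against 26.7% of all genes, and 17 of 25 were closer to even in the groups labelled synj1+/-, against 58.3% of all genes, a share not far below. The shares of all genes past the limit in this direction were 7.79% and 4.53%. KLK6 had the lowest ratios, -0.87 and -0.66, the second close to the -0.65 of NINJ2. OPALIN, QDPR, ASPA, PRR18, SEPT4 and OMG had higher values below in both groups, so the direction was not shared by all myelin genes.

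The enzymes that make and break down galactolipids, a list of 14 with 13 valued below, had genotype medians of -0.04 and -0.11. DEGS2, a ceramide desaturase, had 8.14 and 11.0 above (log2 ratio 0.43). ASAH1, the lysosomal acid ceramidase, had 473 and 319 below (log2 ratio -0.57). They were 1 of 14 genes past the limit above and 1 of 13 below, against 11.6% and 19.6% of all genes, and are given as values only. GAL3ST1, which sulfates galactosylceramide to sulfatide, had 351 and 353 above. Of 20 transcription factors of the oligodendrocyte lineage, 18 had values above and 16 below, with medians of -0.08 and -0.09. HES5, a Notch target that holds back differentiation, was higher in the group labelled synj1+/-, with 8.71 and 16.9 above (log2 ratio 0.96) and 9.67 and 13.8 below (log2 ratio 0.51). TCF7L2, expressed in newly differentiating oligodendrocytes, had 215 and 176 above (log2 ratio -0.29) and 247 and 168 below (log2 ratio -0.56). Of this list 1 of 18 genes was past the limit above, and 1 higher and 1 lower of 16 below, against 11.6% and 19.6% of all genes. OLIG2 had 49.2 and 46.2 above and 41.7 and 47.4 below.

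Genes of oligodendrocyte precursors and newly formed oligodendrocytes had mostly lower values in the group labelled synj1+/-. Above, 11 of 14 were lower, with a median of -0.15, and below 11 of 12, with a median of -0.20, against 51.0% and 47.2% of all genes. The 2 of 14 genes past the limit above and the 1 of 12 below stand against 11.6% and 19.6% of all genes called, so few of these differences were large. Past the limit were TNR (168 to 122, log2 ratio -0.47) and GPR17, which marks cells about to mature (67.4 to 49.8, log2 ratio -0.44), both above the lesion, and BMP4 (10.9 to 6.44, log2 ratio -0.76) below it. PDGFRA, the defining receptor of precursors, had 63.6 and 58.3 above and 69.3 and 56.0 below. The axonal and nodal partners of myelin, such as CNTNAP1 and KCNA2, had a median of -0.08 over 15 genes above and of 0.20 over 10 genes below. KCNA1, a potassium channel next to the nodes, had 34.1 and 25.5 above (log2 ratio -0.42) and 28.6 and 36.0 below (log2 ratio 0.33). It was the gene of this list past the limit at each site, 1 of 15 above and 1 of 10 below, against 11.6% and 19.6% of all genes.

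Genes of microglia and macrophages, of fibroblasts and of astrocytes differed more between the genotypes than the myelin genes did. Of all genes, 11.6% were called above and 19.6% below, and 51.0% and 47.2% were lower at any size. The summed level of 16 genes of microglia and macrophages was 2891 and 2182 above, with 15 of 16 lower and 10 past the limit, and that of 13 such genes was 3395 and 2194 below, with 13 of 13 lower and 11 past it. Their defining markers were not at 0, with AIF1 at 18.2 and 18.7 above and 27.0 and 14.2 below. Fibroblast genes summed to 336 and 251 above, where FN1 alone had 230 and 159 and 6 of 11 were lower past the limit. Below, where FN1 had no value, they summed to 671 and 131 and 10 of 10 were lower past the limit. Astrocyte genes summed to 18959 and 15723 above and to 17117 and 13506 below, with 8 and 9 of 10 lower, 1 and 3 of them past the limit. GFAP alone had 12975 and 10584 of these sums above and 11117 and 8485 below. All 3 lists thus had lower sums in the groups labelled synj1+/-, most so the fibroblast genes below the lesion. The neuron genes summed to 12209 and 13560 above, where SNAP25 (5239 and 6248) and RBFOX3 (1486 and 1781) made up most of the difference, 9 of 14 were higher, 0 were past the limit and the median was 0.03. Below they summed to 10216 and 12601, with 11 of 12 higher and a median of 0.18, and 3 of 12 were past the limit against 19.6% of all genes. Endothelial genes, of the vessel lining, had medians of 0.10 and -0.11. By comparison the members' sums were 12435 and 11943 above and 11330 and 10699 below. The part of these other cell types in the myelin values was not tested.

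Peripheral myelin is made by Schwann cells, which can enter an injured cord and express some of the same lipid enzymes. Of 12 Schwann cell genes, 5 had values above and 8 below, with genotype medians of -0.12 and -0.30. EGR2, the master transcription factor of myelinating Schwann cells, had 42.4 and 17.8 below (log2 ratio -1.25) but 31.9 and 33.3 above (log2 ratio 0.06). NCMAP, a protein of peripheral myelin, had 8.49 and 15.6 above (log2 ratio 0.88), past the limit in the other direction, and 20.6 and 16.0 below (log2 ratio -0.37). Past the limit were 1 higher and 1 lower of 5 genes above, and 4 lower of 8 below, against 11.6% and 19.6% of all genes. The list summed to 204 and 194 above and to 417 and 360 below. Between the sites, 50.2% of all genes were lower below in the groups labelled synj1+/+ and 44.5% in those labelled synj1+/-. Fibroblast genes were higher below for 10 of 10 genes in both genotypes, with medians of 3.29 and 0.67, and genes of microglia and macrophages for 12 of 13 and 9 of 13, with medians of 0.53 and 0.11. These ratios had the opposite sign to those of the members and, like theirs, were larger in the groups labelled synj1+/+. Their part in the lower myelin values below the lesion was not tested.

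**Figure D4:**
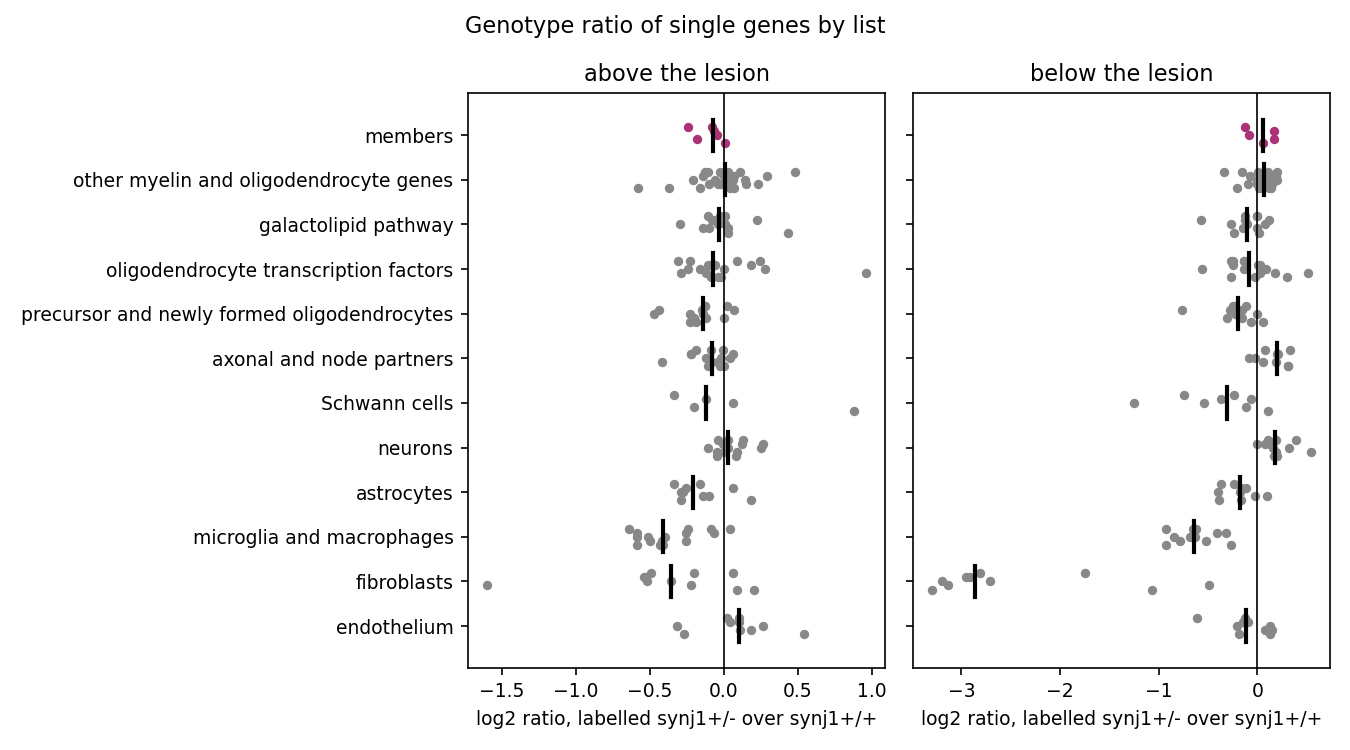
Log2 ratio of the synj1+/- labelled value over the synj1+/+ labelled value for each gene of 12 lists, above (left) and below (right) the lesion, with the horizontal scales differing between panels and a black bar at each list's median. The members, in purple, lie between -0.24 and 0.17, while genes of microglia and macrophages and of fibroblasts lie mostly to the left of 0, with medians of -0.64 and -2.86 below the lesion.

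To find genes whose 4 group values ran most like those of the members, each gene's log2 values were centred on their own mean and set against the members' median profile, which was 0.23 and 0.05 above and -0.14 and -0.09 below. Among 2487 genes at a level of 100 or more in every group, the closest were KDM2B (distance 0.0276 on the log2 scale), HUWE1 (0.0511), TMCC3 (0.0544), MAL (0.0582) and FAM184A (0.0597). MAL, a proteolipid of compact myelin with 483 and 447 above and 388 and 397 below, was the sole gene of the 5 from the wider myelin list. The closest member was MOG, at 0.0923, and 19 genes were closer than it. MOBP was the farthest, at 0.2138, with 313 genes closer. With 4 values a gene the profile is short, and likeness to it is not particular to myelin genes.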

How the data were processed

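Total RNA from spinal cord segments was made into random-primed libraries with a kit that does not mark strand, so reads of genes that overlap on opposite strands cannot be told apart. Per the labels and the study's methods, the authors reduced the reads of each site at random to the number in its smallest library, aligned them with STAR 2.5.4b to GRCm38.p6, and computed gene values with Cuffdiff 1.3.0 under upper quartile normalization. The deposited table combines the 3 libraries of a group into 1 value a gene and site, read here as FPKM plus 1. This reading rests on the lowest value being exactly 1, listed 19 times, and on no statement by the authors. The table's other columns hold the authors' own fold changes, log2 fold changes, p-values and q-values between the genotypes, and a second table repeats a subset of them. None of these were used. There were 0 columns of single samples, so no test was made, no replicate was left out and no depth or interval is given.

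From the group values, log2 ratios, ranks and shares of genes past a log2 ratio of 0.32 were computed with Python 3.11.15, numpy 2.4.6 and pandas 2.3.3, and plots drawn with matplotlib 3.10.9. Repeated symbols, 3 in all, were left out of the genes listed at both sites, while their rows were kept among the genes of each single site. The ratio calculation was tested on simulated data with known fold changes. Genes named are all members, SYNJ1, of the other myelin list up to 5 with the largest ratio at each site, and the 5 closest in profile among genes at 100 or more in every group. Not every gene that meets this rule is reported here. Genes named from the remaining lists were chosen after their values were seen, as were KLK6, OPALIN, QDPR, ASPA, PRR18, SEPT4 and OMG in the comparison of sites. The members and all lists were chosen with earlier results of these data known. Gene positions are those of GRCm38, and upstream sequences those of RefSeq on GRCm38.p6, of which the 60 bases next to the start are not shown.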

Additional observations from a re-analysis of the deposited data

Results flagged for a closer look

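MOG was flagged because its genotype ratio had opposite signs at the sites and the ratios lay more than the limit of a call apart. Above the lesion its value was 283 under the synj1+/+ label and 249 under the synj1+/- label, a log2 ratio of -0.18, and below the lesion 206 and 231, a log2 ratio of 0.17. The difference, below minus above, was 0.35 on the log2 scale, and 91.7% of 12023 genes had a lower one. The difference was not tested, since each value combines 3 libraries and shows no spread between them. The other myelin genes had a median difference of 0.06, with 18 of 25 above 0 and 0 of 25 past the limit in either direction. Of all 12023 genes, 6481 had a difference above 0, and 1201 were past the limit upward and 1206 downward. A difference past the limit was thus not particular to MOG.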

How the results depend on the processing

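Each median, count and share was recomputed under other settings, 58 in all. Of these, 43 gave values close to those reported (medians within 0.1 on the log2 scale, counts and shares within 1.5 times) and 15 moved. The members' largest median, -0.32, is the value of CLDN11 and fell just short of the limit of a call. No recomputed median could therefore turn a called direction, and the single called genes were not followed in this way. At 1.1-fold, the members called numbered 2 above and 2 below the lesion between the genotypes, and 4 and 3 between the sites in the groups labelled synj1+/+ and synj1+/-, while at 1.5-fold the site count in the groups labelled synj1+/+ was 0. The shares of all genes past these 2 folds were not computed, so these counts have no background beside them. Between the genotypes below the lesion, both quartiles of all genes, -0.15 and 0.16, lie past 1.1-fold. Dividing by the sum over all listed genes turned the site medians from -0.32 and -0.19 to 0.03 and 0.12, with 0 members called in the groups labelled synj1+/+. That scaling sets 12338 genes below against 13647 above, so the sums differed by -0.35 and -0.31 on the log2 scale, against -0.01 and 0.03 over genes listed at both sites. Dividing by the latter sums, chosen after seeing the data, kept the medians at -0.31 and -0.22 and called 1 member, FA2H, in the groups labelled synj1+/-. Dividing by PPIA gave site medians of -0.56 and -0.31, where the cause was not tested. Among genes at 50 or more in both groups, a filter also chosen after seeing the data, the shares of genes called were 5.03% above and 11.4% below between the genotypes, and 5.12% and 1.85% lower past the fold between the sites, so the members' counts stand against a smaller background. Removing MOBP, added afterwards, moved no median by more than 0.1. The planned setting without MBP was not run, as MBP was not analysed here. No paired analysis was possible because each deposited value already pools the libraries of its group, and leaving out a replicate could not be done for the same reason.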
